A study of Mus musculus with 6 samples.

Results

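Rod and ON cone bipolar cells carry the signal of photoreceptors to the inner retina, and 9 genes stand here for these cells and for the cascade in their dendrites: Grm6, Trpm1, Nyx, Gpr179, Gnao1, Pcp2, Prkca, Cabp5 and Isl1. Their members on the array are the probe sets whose platform annotation names exactly 1 of these genes. This gave 19 probe sets of 8 genes, of 45037 probe sets other than controls in all. No probe set was named Grm6, so the receptor at the head of the cascade was not analysed here. Trpm1 had 4 probe sets, Gnao1, Pcp2 and Prkca had 3 each, Cabp5 and Isl1 had 2 each, and Nyx and Gpr179 had 1 each. Probe sets of 1 gene share their target, so they are not independent of each other.

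The samples were whole retinas, freed of the pigment epithelium, of BALB/c AJ mice, an albino strain, at post-natal day 40. The 3 wild-type samples have the genotype wt/wt and the 3 knockout samples the genotype ko/ko for Nxnl2, a gene of the thioredoxin family made in photoreceptors. The labels give no sex, no number of animals per sample and no account of how the allele was made. Nothing in them ties a replicate to its own animal, and the p-values rest on the spread of these samples alone, possibly a technical spread.

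Photoreceptors release glutamate in the dark, and ON bipolar cells turn that signal over: the metabotropic receptor mGluR6 (Grm6) activates the G protein Go, whose alpha subunit is the product of Gnao1, and the active G protein keeps the cation channel TRPM1 shut. Light lowers glutamate, the G protein is switched off by RGS proteins, and the channel opens. Nyctalopin (Nyx) and the orphan receptor GPR179 hold channel, receptor and RGS proteins together at the dendritic tip, and loss of GRM6, TRPM1, NYX or GPR179 in people causes complete congenital stationary night blindness. Protein kinase C alpha (Prkca) and Purkinje cell protein 2 (Pcp2) are classical markers of rod and ON bipolar cells, Cabp5 is a calcium-binding protein of rod and some cone bipolar cells, and Isl1 is a transcription factor of ON bipolar cells that amacrine and ganglion cells also make.

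Values are log2 expression after RMA, the deposited scale, and a difference of 1 is a 2-fold change in signal. The file has no detection calls, so each array's brightest probe set for Bacillus transcripts, which match no mouse gene, served as its background; it read 4.13 to 4.60. Of the 19 member probe sets, 18 lay above it in all of wild-type replicates 1 to 3 and knockout replicates 1 and 2. The exception was the dimmest one of Trpm1, above it in 2 of these 5 arrays. RMA levels of different probe sets depend on their probes, so no gene's level was set against another's.

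One array goes against its label. The brighter Nxnl2 probe set read 11.38, 11.45 and 11.42 in wild type, 3.78 and 3.73 in knockout replicates 1 and 2, but 9.21 in knockout replicate 3, hence named the array labelled knockout replicate 3 here and shown separately. Its correlation with the other arrays was 0.848 to 0.853 over probe sets, against 0.994 to 0.996 among the other 5. In it all 8 measured rod markers and all 7 measured cone markers lay over 2 log2 units below the mean of the other 5 arrays, and 9 of 11 measured olfactory and nasal markers lay as far above. Every comparison is therefore given with all 6 arrays and with 5.

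Upstream sequence is shown for 6 of the genes, some CpG-poor and some CpG-rich, chosen after the expression values were seen. Gpr179, Trpm1 and Grm6 are also CpG-poor and are not printed. The 250 bases before a RefSeq start site are printed from the GRCm38.p6 promoter table, 5′ to 3′ on the gene's strand, with CpG dinucleotides in capitals. Cabp5, Pcp2 and Nyx, whose probe sets read at or near the controls in the array labelled knockout replicate 3, had 0 to 2 CpG.
Cabp5 (chr7:13397905-13398154, plus strand, 0 CpG): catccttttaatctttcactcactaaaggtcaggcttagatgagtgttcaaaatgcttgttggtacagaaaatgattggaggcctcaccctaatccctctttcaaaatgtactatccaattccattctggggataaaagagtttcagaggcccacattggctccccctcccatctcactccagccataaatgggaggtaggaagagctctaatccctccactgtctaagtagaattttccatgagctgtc
Pcp2 (chr8:3625548-3625797, minus strand, 1 CpG): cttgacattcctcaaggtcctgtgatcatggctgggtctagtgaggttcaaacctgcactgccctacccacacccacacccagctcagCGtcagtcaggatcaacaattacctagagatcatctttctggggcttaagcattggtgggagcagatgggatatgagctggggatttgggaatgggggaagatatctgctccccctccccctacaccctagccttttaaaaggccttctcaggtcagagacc
Nyx (chrX:13460840-13461089, plus strand, 2 CpG): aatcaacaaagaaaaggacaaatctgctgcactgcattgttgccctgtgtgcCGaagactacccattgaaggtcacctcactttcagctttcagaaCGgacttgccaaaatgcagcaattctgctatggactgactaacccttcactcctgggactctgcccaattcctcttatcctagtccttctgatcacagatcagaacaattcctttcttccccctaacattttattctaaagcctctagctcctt

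Gnao1, Isl1 and Prkca, whose brightest probe sets stayed far above the controls in that array, had 33 to 39.
Gnao1 (chr8:93810588-93810837, plus strand, 36 CpG): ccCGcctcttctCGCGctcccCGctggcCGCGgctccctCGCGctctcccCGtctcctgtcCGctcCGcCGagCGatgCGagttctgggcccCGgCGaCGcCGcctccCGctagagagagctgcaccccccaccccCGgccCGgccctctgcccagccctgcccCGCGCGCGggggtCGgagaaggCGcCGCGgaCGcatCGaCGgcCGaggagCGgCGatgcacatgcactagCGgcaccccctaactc
Isl1 (chr13:116309689-116309938, minus strand, 33 CpG): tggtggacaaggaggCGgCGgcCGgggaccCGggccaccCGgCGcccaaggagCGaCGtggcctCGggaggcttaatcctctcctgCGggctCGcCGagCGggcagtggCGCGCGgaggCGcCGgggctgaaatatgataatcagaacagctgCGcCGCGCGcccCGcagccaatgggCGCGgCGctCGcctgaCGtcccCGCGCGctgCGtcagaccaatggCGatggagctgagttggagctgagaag
Prkca (chr11:108343889-108344138, minus strand, 39 CpG): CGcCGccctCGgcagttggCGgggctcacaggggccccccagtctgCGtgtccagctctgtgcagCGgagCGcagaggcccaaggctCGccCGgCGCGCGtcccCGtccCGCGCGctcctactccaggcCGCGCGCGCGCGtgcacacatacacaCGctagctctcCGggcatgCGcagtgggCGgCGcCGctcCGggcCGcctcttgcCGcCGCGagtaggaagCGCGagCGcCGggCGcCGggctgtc

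Over all 32851 windows of the table the median was 6 CpG, 49.6% of windows held 5 or fewer, and 5.94% held 30 or more. The other 3 windows of Pcp2 held 1, 2 and 0 CpG. The split does not follow the drop in that array throughout: Gpr179 with 2 CpG and Trpm1 with 1 and 4 CpG in its windows also kept a probe set above the controls. Every probe set of the CpG-rich Prkca and Isl1 lay over 2 log2 units below the other arrays there, and the dimmest of Prkca lay below the control. Grm6, which was not measured, has 4. The CpG count was looked at after the expression values were seen, is a description of 13 windows, and was not tested.

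The letters TAATCC, the core read by the homeodomain factors OTX2 and CRX, were searched on both strands in the whole window of 250 bases before and 50 after the start. They stood in 3 of the 13 windows of these genes, 1 each of Cabp5, Trpm1 and Isl1, and in 7.06% of all windows of that length. The matches begin 160 and 41 bases before the start of Cabp5, 34 before that of Trpm1 and 177 before that of Isl1, and are shown in capitals with their surroundings; that of Trpm1 reads as the reverse complement.
Cabp5, farther match (chr7:13397983-13398012, plus strand): gaggcctcacccTAATCCctctttcaaaat
Cabp5, nearer match (chr7:13398102-13398131, plus strand): taggaagagctcTAATCCctccactgtcta
Trpm1 (chr7:64153789-64153818, plus strand): cggggggagtagGGATTAaggctgattaca
Isl1 (chr13:116309848-116309877, minus strand): cctcgggaggctTAATCCtctcctgcgggc

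The homeodomain core TAATTA was found in 1 of the 13 windows, the third of Pcp2, against 5.29% of all windows, and the E-box CATATG in 0 of 13, against 3.91%. A match is only these letters in this window, and binding was not measured.

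With knockout replicates 1 and 2 against the 3 wild-type arrays, the bipolar probe sets differed little. Differences ran from -0.31 to 0.12 on the log2 scale, 9 above 0 and 10 below, with a median of -0.0033 against 0.0037 over all probe sets. By limma with Benjamini-Hochberg adjustment, 0 of 19 passed an adjusted p of 0.05, where 0.0111% of all probe sets did; the smallest adjusted p was 1.0. At an unadjusted p under 0.05 stood 1 of 19, against 3.05% of all probe sets. Over the 19 probe sets the 95% intervals, each taken singly, lay within -0.59 and 0.42, that is between 0.664-fold and 1.34-fold of wild type. They rest on the spread of these arrays, which may not hold the spread between animals, so they set no limit on an effect in mice. In whole retina, fewer bipolar cells and less RNA per cell cannot be told apart.

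**Figure D1:**
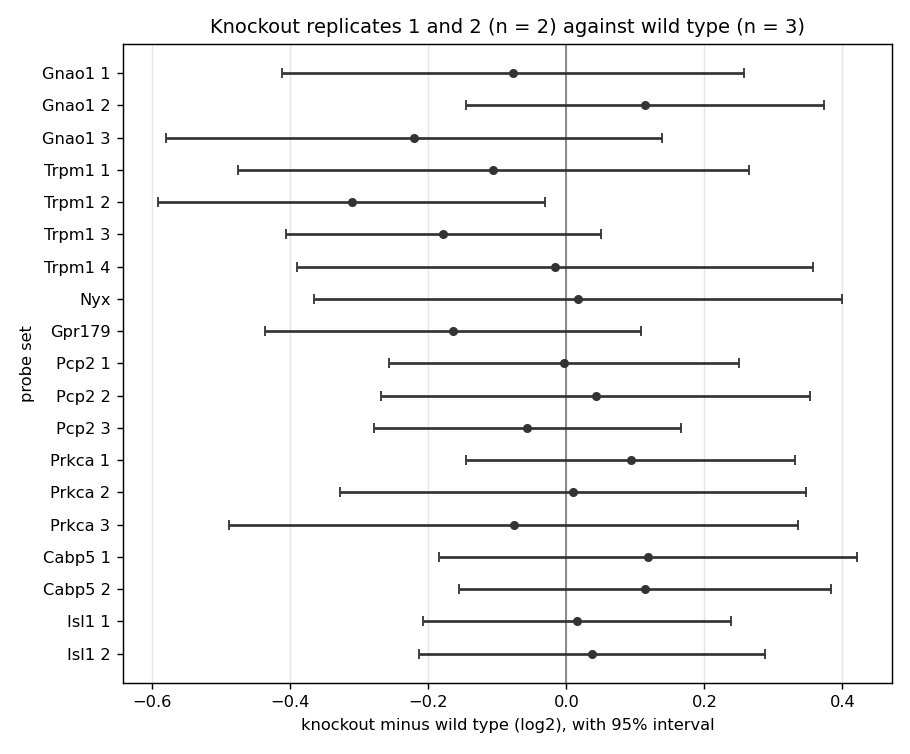
Difference between knockout replicates 1 and 2 and wild type (x axis, log2) for each of the 19 probe sets, numbered from the brightest within a gene; points are limma estimates and bars their 95% intervals. Each interval but that of the second Trpm1 probe set, -0.59 to -0.03, includes 0.

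With all 6 arrays every one of the 19 differences was below 0, with a median of -0.78 against -0.02 over all probe sets, and again 0 of 19 passed by limma, where 0.0% of all probe sets passed. Adjusted p-values were 0.798 to 0.940, and 0 of 19 had an unadjusted p under 0.05, against 1.0% of all probe sets. Standard errors reached 2.19, because the array labelled knockout replicate 3 lay far from the other knockout arrays. Groups did not overlap for 3 probe sets, all lower in knockout, in the 6 arrays and in the 5. That is 15.8% of the members, where groups did not overlap for 8.32% of all probe sets in 6 arrays (4.54% with knockout lower) and for 16.3% in 5 arrays (7.86% with knockout lower).

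**Figure D2:**
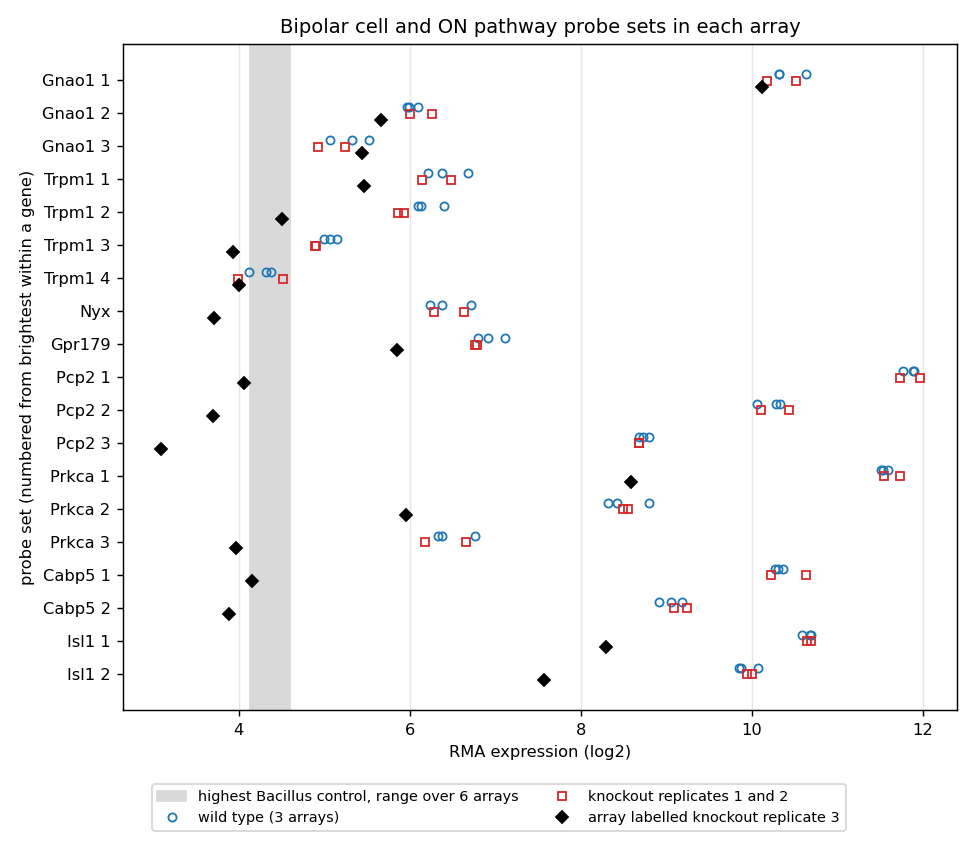
Expression (x axis, log2 after RMA) of the 19 probe sets in each array; circles are wild type, squares knockout replicates 1 and 2, diamonds the array labelled knockout replicate 3, and the grey band is the range of the highest Bacillus control (4.13 to 4.60). Circles and squares lie close together in every row, while the diamonds of Pcp2 and Cabp5 lie at or left of the band and those of Gnao1 near the other arrays.

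The G protein came first in the cascade among the measured members. The brightest probe set of Gnao1, the alpha subunit of Go that also serves many other neurons, read 10.32, 10.32 and 10.63 in wild type, 10.17 and 10.52 in knockout replicates 1 and 2, while the array labelled knockout replicate 3 read 10.12. Wild-type and knockout values overlapped, with a difference of -0.08 in the 5 arrays (SE 0.15, limma adjusted p = 1.0). Its other probe sets stood at 0.11 and -0.22. Gnao1 was the only one of the 8 genes with each probe set within 1 log2 unit of the other arrays in the array labelled knockout replicate 3, at -0.28, -0.40 and 0.22.

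Trpm1, the channel, was the one gene of several probe sets whose differences were all below 0, by small amounts that did not pass. Its second probe set (1418935_at) read 6.09, 6.40 and 6.13 in wild type and 5.86 and 5.94 in knockout replicates 1 and 2, so the groups did not overlap. The difference was -0.31 (SE 0.12, 95% interval -0.59 to -0.03, limma adjusted p = 1.0). The third (1437531_at) read 5.07, 5.15 and 5.001 against 4.90 and 4.89, also without overlap, a difference of -0.18 (SE 0.10). The brightest (1437445_at) overlapped, at 6.37, 6.68 and 6.21 against 6.14 and 6.49, a difference of -0.11 (SE 0.16). The fourth differed by -0.02 and lay at the controls.

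Trpm1 is also made by pigment cells, which know it as melastatin, and pigment epithelium markers were uneven among these arrays. The 9 pigment epithelium markers, all of them above the controls in the 5 arrays, had a median of -0.16, 0.53 and -0.38 from the wild-type mean in wild-type replicates 1, 2 and 3, and of -0.89 and -0.27 in knockout replicates 1 and 2. Their summed linear signal was 12.84 to 13.55 in wild type and 12.62 to 13.09 in those knockout arrays, as log2. Rpe65, the isomerase of the pigment epithelium, read 10.15, 10.82 and 9.90 in wild type and 9.54 and 10.02 in knockout. By list median and for Rpe65, wild-type replicate 2 was the highest of the 5 arrays and knockout replicate 1 the lowest. Wild-type replicate 2 was also highest for the 3 brighter Trpm1 probe sets, but the third was lowest in knockout replicate 2. That order was not confined to pigment markers: Gpr179 read highest in wild-type replicate 2, at 7.11, and lowest in knockout replicate 1, at 6.76. Without wild-type replicate 2 the second Trpm1 probe set stood at -0.21, the third at -0.14 and the brightest at 0.02. The part of pigment cells in the Trpm1 values was not tested. Other marker lists had medians between -0.09 and 0.05 in the 5 arrays for retinal neurons and Müller glia, but 0.31 for microglia, -0.91 for lens, where wild-type replicate 2 stood 1.79 above the wild-type mean, and 0.80 for skeletal muscle, where knockout replicate 2 stood 1.91 above it; their part in the member values was not tested.

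Of the proteins that hold the complex together, nyctalopin transcript read 6.38, 6.23 and 6.72 in wild type and 6.64 and 6.28 in knockout replicates 1 and 2, with complete overlap and a difference of 0.02 (SE 0.17). Gpr179 read 6.79, 7.11 and 6.91 against 6.76 and 6.79. Its groups did not overlap, but knockout replicate 2 and wild-type replicate 1 round to the same value, and the difference was -0.16 (SE 0.12, limma adjusted p = 1.0). Nyx fell to 3.71, below the control, in the array labelled knockout replicate 3, and Gpr179 to 5.85, still above it.

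Pcp2, which binds Go-type alpha subunits through a GoLoco motif, read alike in both genotypes of the 5 arrays. The brightest of its probe sets (1419085_at) read 11.90, 11.89 and 11.77 in wild type and 11.74 and 11.96 in knockout replicates 1 and 2. The 5 values lay within 0.22 of each other, and the difference was -0.0033 (SE 0.11, 95% interval -0.26 to 0.25). The other Pcp2 probe sets stood at 0.04 (SE 0.14) and -0.06 (SE 0.10).

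Prkca, the kinase of rod bipolar cells, read 11.54, 11.51 and 11.59 in wild type and 11.55 and 11.73 in knockout replicates 1 and 2 by its brightest probe set, which overlapped, with a difference of 0.09 (SE 0.10). Its dimmer probe sets stood at 0.01 and -0.08. The calcium sensor gene Cabp5 read 10.27, 10.30 and 10.36 against 10.23 and 10.63, where knockout replicate 1 was the lowest of the 5 arrays and knockout replicate 2 the highest. Its difference was 0.12 (SE 0.13), and that of its dimmer probe set 0.11 (SE 0.12). The brighter probe set of Isl1 read 10.58, 10.68 and 10.70 in wild type and 10.69 and 10.65 in knockout, a range of 0.11 over 5 arrays, with a difference of 0.02 (SE 0.10), and the dimmer one stood at 0.04 (SE 0.11). Over the members the range across these 5 arrays was 0.11 to 0.60 with a median of 0.37, against a median of 0.30 for all probe sets above the controls in the 5.

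The partners of the cascade, from lists written with earlier results of these data known, gave no call either. Each gene was taken at its brightest probe set and tested among 18193 genes, of which limma called 0.0% in 6 arrays and 0.011% in 5. Of 8 ON pathway partners 7 were measured, and 0 passed in either direction in 5 or 6 arrays, with a median of 0.04 in 5 arrays against 0.0048 over all genes. Rgs7 and Rgs11, the RGS proteins that switch Go off, stood at 0.09 (SE 0.09) and -0.07 (SE 0.09). Gnb5, the beta subunit bound to them, stood at -0.07 (SE 0.09), and Rgs9bp, the membrane anchor of such RGS proteins, at -0.14 (SE 0.10). Gnb3, a beta subunit of cones and ON bipolar cells, stood at 0.19 (SE 0.16), and knockout replicate 1 was its highest array at 11.71 against 11.13 to 11.32 in the other 4.

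Of 12 bipolar transcription factors 9 were measured and 0 passed, with a median of 0.03 in 5 arrays and a range of -0.08 to 0.10. Otx2, which both photoreceptors and bipolar cells need, stood at -0.07 (SE 0.10). Vsx1, of cone bipolar cells, stood at 0.10 (SE 0.12), Neurod4, a proneural factor, at 0.10 (SE 0.10), Bhlhe23, which rod bipolar cells require, at -0.08 (SE 0.10), and Prdm8 at 0.07 (SE 0.11). Of 16 bipolar subtype markers 14 were measured and 0 passed, with a median of -0.0011, 12 of them above the controls in the 5 arrays. The 4 with the smallest p were Tmem215 at 0.24 (SE 0.12), Erbb4 at -0.18 (SE 0.09) with all 5 values below the controls, the neurokinin receptor gene Tacr3 at 0.19 (SE 0.10) and the carbonic anhydrase-related gene Car8 at 0.16 (SE 0.09).

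**Figure D3:**
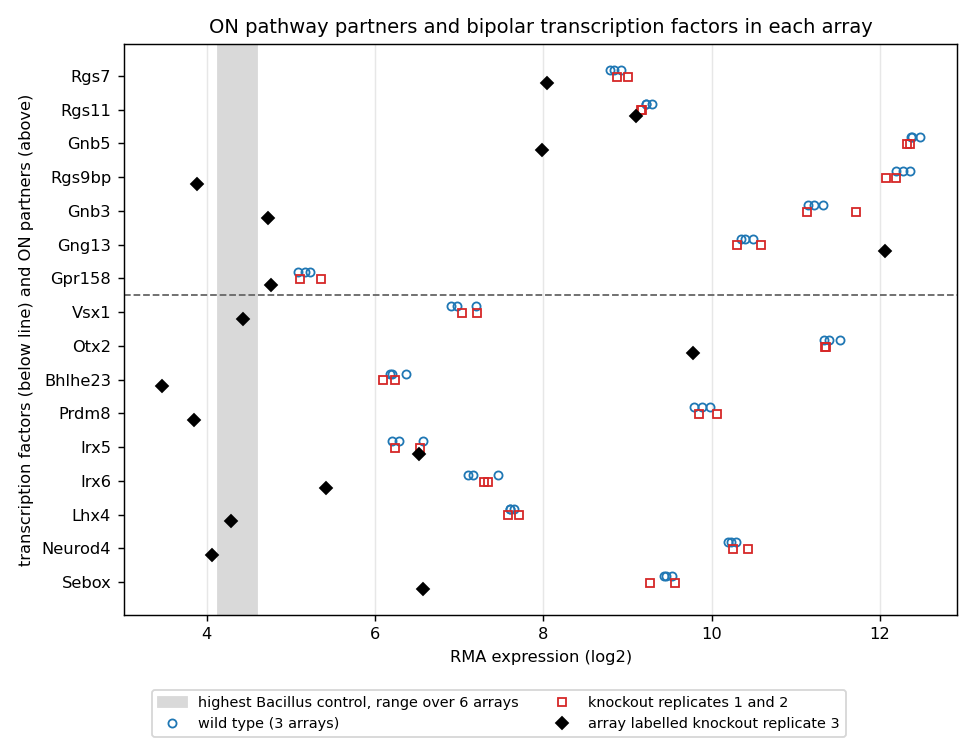
Expression (x axis, log2 after RMA) of 7 measured ON pathway partners, above the dashed line, and 9 measured bipolar transcription factors, below it, in each array, with symbols and grey band as in the plot of the member probe sets. Wild type and knockout replicates 1 and 2 lie close together in each row; the array labelled knockout replicate 3 reads highest for Gng13 alone.

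On the photoreceptor side of the synapse, 10 of 10 partners were measured and 0 passed, with a median of -0.01 in 5 arrays. Slc17a7, the vesicular glutamate transporter, stood at -0.46 (SE 0.27), where wild-type replicate 3 read 10.50 and the other 4 arrays 9.26 to 9.50. Cacna1f, the calcium channel of the photoreceptor terminal, stood at -0.14 (SE 0.13), Ctbp2, whose RIBEYE form builds the ribbon, at 0.13 (SE 0.13), and Elfn1, a synaptic adhesion protein that binds mGluR6, at -0.09 (SE 0.10). Among paralogs of the members 21 of 22 were measured and 0 passed, with a median of 0.01; Grm7, a group III relative of Grm6, stood at 0.24 (SE 0.13) and Gnai1, a relative of Gnao1, at 0.16 (SE 0.09). At an unadjusted p under 0.05 stood 0 genes of these 5 lists in either comparison, against 3.45% of all genes in 5 arrays and 0.726% in 6. Cabp2, Cabp4 and Gpr158 stand in 2 of the lists each.

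The array labelled knockout replicate 3 was set against the mean of the other 5 as a description, since 1 array has no replicate. In it 11 of 19 member probe sets, or 57.9%, lay over 2 log2 units lower, against 3.65% of all probe sets, and it was the lowest of the 6 arrays for 17 of 19, against 43.1%. These shares over all probe sets are not matched for level. Of the 45037, only 28728 lay above the controls in the other 5 arrays, and dim probe sets have little room to fall. Counted by gene at the brightest probe set, 5 of 8 lay over 2 log2 units lower, against 4.49% of all genes. The same 5 had every probe set that far down, a count for which no share over all genes was taken. Of the 18 probe sets above the controls in the other 5 arrays, 7 were not above them in this one, against 2.63% of the 28728 probe sets of the whole array that lay above the controls in the other 5.

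Pcp2 and Cabp5 gave the largest measured folds and bounds among the members. The brightest Pcp2 probe set read 4.06, below the control of that array, against 11.85 ± 0.09 (SD, n = 5), which is at least 211-fold lower when the control is taken as the floor. The others were at least 69.1-fold and 24.0-fold lower by the same bound. The brighter Cabp5 probe set read 4.15, just above the control at 4.13, against 10.36 ± 0.16 (SD, n = 5), and the dimmer one was at least 31.3-fold lower. Nyx was at least 4.99-fold lower, a bound set by its modest level of 6.45 ± 0.22 (SD, n = 5) in the other arrays.

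Prkca and Isl1 were lower but stayed above the control by their brightest probe sets. Prkca read 8.59 by its brightest probe set against 11.58 ± 0.09 (SD, n = 5), 7.96-fold lower, its second was 5.92-fold lower, and its dimmest, below the control, at least 5.03-fold lower. Isl1 read 8.29 against 10.66 ± 0.05 (SD, n = 5), 5.16-fold lower, and by its dimmer probe set 5.21-fold lower. Gpr179 was 2.04-fold lower, and the 2 brighter Trpm1 probe sets were 1.88-fold and 2.99-fold lower, while Gnao1 differed by 1.21-fold for its brightest probe set. Amacrine cells and ganglion cells, which also make Isl1, had marker medians of -2.02 over 9 genes and -3.60 over 8 in that array.

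Partners of the cascade split in the same array. Rgs9bp read 3.89, below the control, against 12.22 ± 0.11 (SD, n = 5), Gnb3 read 4.73 against 11.30 ± 0.24 (SD, n = 5) and Gnb5 read 7.98 against 12.38 ± 0.06 (SD, n = 5). Rgs7 (-0.84), Rgs11 (-0.11) and Gpr158 (-0.43) lay within 1 log2 unit. Gng13, a gamma subunit of both ON bipolar cells and olfactory neurons, read 12.06 there against 10.4 ± 0.115 (SD, n = 5). Gnal, the olfactory alpha subunit and a relative of Gnao1, read 12.36 against 7.24 ± 0.13 (SD, n = 5), and both Gng13 and Gnal stand in the olfactory list too. Omp, the marker of mature olfactory neurons, read 12.61 against 5.15 to 5.62.

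By list, over 2 log2 units lower in that array were 3 of 7 ON pathway partners, 6 of 9 transcription factors, 7 of 14 subtype markers, 8 of 10 photoreceptor synapse partners and 7 of 21 paralogs, against 4.49% of all genes; as far above lay 1 paralog, Gnal, against 7.44%. Median differences were -0.84, -2.75, -1.93, -4.48 and -0.85 in that order, against -0.05 over all genes and -2.38 for the member probe sets. With values below the control of that array set at the control, an alternative added after seeing the data, these counts and the 11 of 19 stayed as they were, and the medians were -2.63 for the transcription factors and -2.33 for the members. Genes below the control there have only a bound, and no order is read among them. Among the transcription factors Neurod4 was at least 71.1-fold lower and Prdm8 at least 55.0-fold lower, both below the control, and Lhx4 was 10.2-fold lower. Of the subtype markers Tmem215, below the control, was at least 16.8-fold lower, while Lrtm1, Tacr3 and the GABA receptor genes Gabrr2 and Gabrr1 were 27.7-fold, 27.7-fold, 23.6-fold and 10.8-fold lower. Of the synapse partners Cacna1f was 79.7-fold lower, and Lrit1 and Cacna2d4, below the control, were at least 108-fold and 70.2-fold lower. Of the paralogs the photoreceptor calcium sensor gene Cabp4 was 31.3-fold and Gpsm2 14.4-fold lower, and Cabp1 and Grm8, below the control, were at least 13.5-fold and 6.58-fold lower. Rod markers had a median of -9.54 and cone markers one of -6.57, amacrine markers one of -2.02 and horizontal cell markers one of -2.11. There 5 of 8 rod markers and 2 of 7 cone markers were not above the control. With such values set at the control the rod and cone medians were -9.44 and -6.30.

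**Figure D4:**
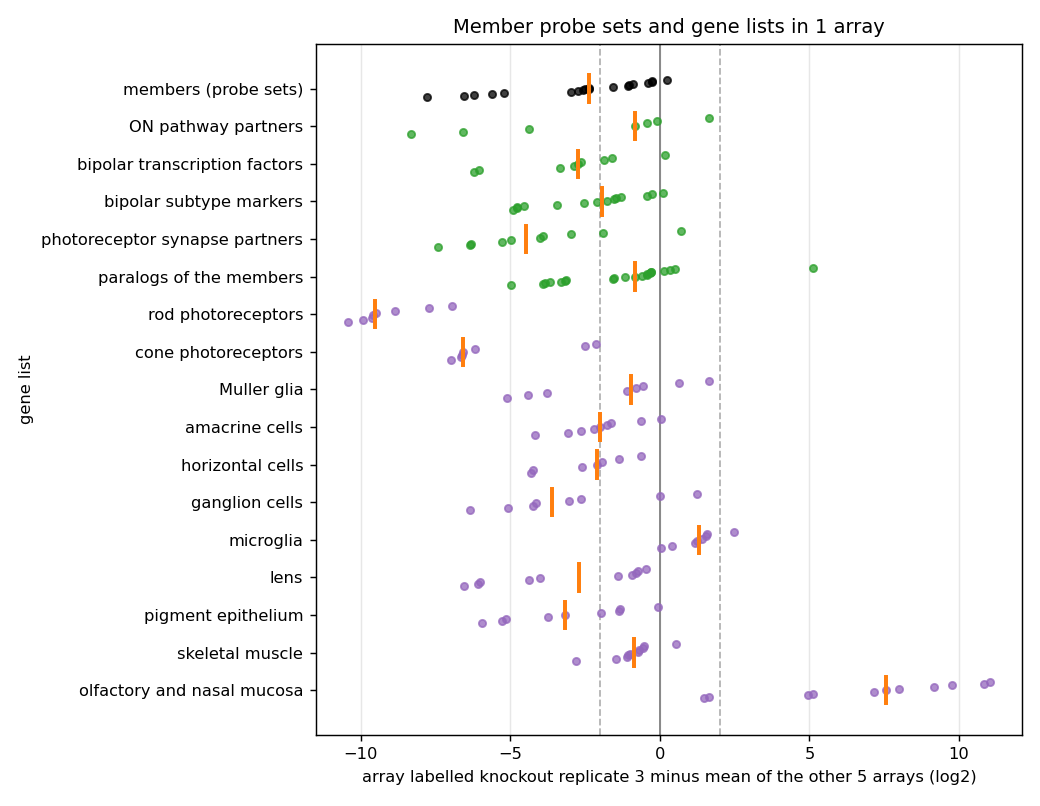
Difference of the array labelled knockout replicate 3 from the mean of the other 5 arrays (x axis, log2) for the 19 member probe sets (black), the genes of 5 pathway lists (green) and of 11 marker lists (purple); orange bars are medians and dashed lines mark 2 log2 units either way. Members spread from -7.79, a value below the control of that array, to 0.22, with a median of -2.38. Rod markers have a median of -9.54, with 5 of 8 not above that control. Müller glia markers have one of -0.96 and the olfactory list one of 7.55.

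Genes with the most similar profile were found by the root mean square difference, over the 6 arrays, between values centred on the wild-type mean. For the brightest Trpm1 probe set these were Malat1 (0.06 log2 units), Faxc (0.07), 2610027K06Rik (0.08), Ttc19 (0.09) and Pnpla3 (0.09). The same measure was to be taken for Grm6. In its place Pcp2 was used, chosen after its values were seen, and gave Rom1 (0.06), Crb1 (0.15), Pde6g (0.17), E130218I03Rik (0.18) and Lrit1 (0.19). Pcp2, Crb1, E130218I03Rik, Lrit1 and 2610027K06Rik lay below the control in the array labelled knockout replicate 3, so the part of these distances that comes from that array rests on values with no order.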

How the data were processed

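Retinal total RNA of 6 samples was hybridised to one-colour Affymetrix arrays as biotin-labelled cRNA, per the labels' protocols. The deposited values are log2 expression per probe set from RMA, per the submitters' processing notes. Software version and chip definition: not given in the sources used here. Array medians are 5.77 to 5.80 after RMA, which would hide a difference in RNA amount per retina. Precision is limited by the number of arrays.

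Of 45101 rows, 64 controls were left out, and 34945 of the 45037 others name 1 gene. Values were used as deposited. Knockout was compared with wild type over all 45037 probe sets by limma 3.58.1 (lmFit and eBayes, no trend, two-sided, Benjamini-Hochberg, threshold 0.05) in R 4.3.3, and pathway lists over 18193 genes, each at its brightest probe set; the procedure was tested on simulated data. Background is the highest of 27 Bacillus control probe sets of an array. Named genes were all members, and of each pathway list the 5 with the smallest p in the 5 arrays and the 5 farthest in the array labelled knockout replicate 3, from which the text gives a selection. Sequences are RefSeq's, from the GRCm38.p6 promoter table, which held 9 of 9 genes; overlapping windows of opposite strand were checked as reverse complements. Members, lists and settings were chosen with earlier results of these data known. Figures used matplotlib 3.10.9.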

Additional observations from a re-analysis of the deposited data

How the results depend on the processing

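The count of member probe sets that passed was 0 in every setting tried, with 6 and with 5 arrays: trend and robust options, array weights, quantile normalization again, median or 75th percentile centring, low probe sets removed, the replicate block, 1 probe set or the mean per gene, a threshold of 0.1, and each array left out. The smallest adjusted p of any member was 0.566 in 6 arrays and 0.959 in 5, each without knockout replicate 1. Removing low probe sets also removes some dim members. Leaving out an array in turn gave a median member change of -1.18 to -0.0033 in 6 arrays, the latter without the array labelled knockout replicate 3, and of -0.084 to 0.026 in 5 arrays; a lone remaining knockout array is taken to vary as wild type does. With 1 probe set per gene, 5 of 8 lay over 2 log2 units lower in the array labelled knockout replicate 3, against 4.49% of all genes.

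Nxnl2 did not pass in 6 arrays (adjusted p = 0.798 for both probe sets). It passed with array weights (-7.59 and -4.34) and without the array labelled knockout replicate 3 (-7.67 and -4.33), and its probe sets lay between -7.67 and -4.92 and between -4.33 and -2.98 when each of 6 arrays was omitted. In 5 arrays they ranged from -7.69 to -7.64 and from -4.41 to -4.19 and passed.

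Signs of uncalled member differences changed as follows; the cause was not tested. In 6 arrays with array weights, Gnao1 stood at 0.044, Prkca at 0.098 and Cabp5 at 0.13. With an array left out of 6, ranges that cross 0 were -1.45 to 0.017 for Nyx, -1.48 to 0.093 for Prkca, -3.12 to 0.12 for Cabp5 and -1.18 to 0.016 for Isl1, with the positive value without the array labelled knockout replicate 3. In 5 arrays, Pcp2 stood at 0.0025 with median centring and 0.013 with 75th percentile centring. With an array left out of 5, ranges that cross 0 were -0.25 to 0.095 for Gnao1, -0.28 to 0.065 for Trpm1, -0.16 to 0.19 for Nyx, -0.12 to 0.11 for Pcp2, -0.082 to 0.32 for Cabp5 and -0.018 to 0.038 for Isl1. The Trpm1 probe sets 1418935_at and 1437531_at, for which settings were added after seeing the data, kept their sign in each setting that held them. The removal of low probe sets dropped 1437531_at, and the settings per gene follow neither.

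Whether equal replicate numbers pair the samples cannot be told from these arrays. The deviations of same-numbered arrays from their group means correlated at -0.06, -0.03 and -0.10 in 6 arrays, and at -0.07 and 0.15 in 5. In 6 arrays the knockout deviations carry the distance of the array labelled knockout replicate 3. In 5 arrays those of knockout replicates 1 and 2 are equal and opposite by construction. With the replicate block 0 member probe sets passed and Gnao1 stood at 0.026 in 5 arrays.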
